A study of Mus musculus with 12 samples.

Results

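The 33 genes described here mark macrophages and other myeloid cells in the mouse heart. They were taken as probe sets that the array's annotation pairs with a single gene symbol, keeping for each gene the probe set with the highest mean. All 33 listed genes were measured, each by 1 probe set, among 19937 genes in all. The study set hearts of mice carrying mutant IDH2, a mitochondrial isocitrate dehydrogenase, against control hearts on 12 Affymetrix mouse gene arrays. There were 4 arrays for IDH2 R172K mutant mice, 4 for IDH2 R140Q mutant mice and 4 for control mice, each holding total RNA of a heart. All 3 groups were bred on a mixed C57BL/6, 129/sv and Balb/c background. Per the labels, the mutant mice received 2 mg of 4-hydroxytamoxifen, an oestrogen receptor ligand used to switch on inducible transgenes, over 3 days at the age of 5 weeks. The sources used here do not give the treatment of the control mice, the construction of the mutant alleles, the cells that express them or the age at dissection. In either comparison with control, the mutation and the drug or recombinase cannot be told apart. The labels number replicates without saying that they are separate animals, so the p-values measure the spread between these arrays.

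The adult heart holds macrophages seeded before birth, which renew themselves in place, and macrophages derived from blood monocytes. Timd4, Lyve1 and Folr2 are markers of the resident population, while Ccr2 marks macrophages that recently arose from monocytes. Activating Fc receptors and Trem2 signal through the membrane adaptors Fcer1g and Tyrobp to the kinase Syk, and lysosomal proteases, lysozyme and the phagocyte oxidase carry out the degradation of engulfed material.

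Values are log2 intensities after the authors' robust multi-array average (RMA), so that 1 unit is a doubling of signal, and levels of different genes are not compared with each other. Array medians lay between 74.8 and 78.0 intensity units, no arrays were duplicates, and the number of arrays limits the precision. Of the 33 genes, 27 were brighter than the median gene, while Fcgr1, Aif1, Ms4a7, Gpnmb, Timd4 and Ccr2 were dimmer. Markers of ventricular cardiomyocytes were abundant on all arrays, with 7 genes summing to 54613 to 67190 intensity units on the R172K arrays, 66033 to 69997 on the R140Q arrays and 72483 to 75240 on the control arrays. R140Q array 4 held lung epithelial RNA, its 5 markers summing to 4926 units against 280.2 or less on the other R140Q arrays, at most 284.8 on the R172K arrays and at most 268.1 on the control arrays. The 5 atrial markers summed to 10584 to 19727 units on the R172K arrays, 616 to 9845 on the R140Q arrays and 4896 to 26830 on the control arrays, with control array 3 highest. Nppa was the largest part of that sum on every array but R140Q array 2. Another of these markers, Myl7, measured 7.43 to 11.36 on the R172K arrays, 5.23 to 6.04 on the R140Q arrays and 6.18 to 12.49 on the control arrays. R172K array 4 stood apart in the direction of the outcome: it had the lowest cardiomyocyte sum, and its 6 activated fibroblast genes summed to 16744 units, against at most 8299 on the other R172K arrays, 6238 on the R140Q arrays and 1740 on the control arrays. R172K array 3, at 2610 units, was the R172K array closest to control in those genes. In RNA from whole tissue, fewer cells of a type and less RNA per cell cannot be told apart.

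A subset of the myeloid genes rose in R172K hearts relative to control hearts, among them Fc receptor, lysosomal and secreted products. Of the 33 genes, 10 passed the test (30.3%), against 13.0% of all genes, by limma at a Benjamini-Hochberg adjusted p of 0.05. The 9 that rose (27.3% of the members against 6.23% of all genes) were Pla2g7, Ms4a4a, Lgals3, Fcgr3, Ctss, Trem2, Ccr2, Gpnmb and Mpeg1, by 1.43-fold to 2.64-fold. The resident marker Timd4 was the 1 that fell (3.03% against 6.78% of all genes). The difference was positive for 30 of 33 genes, with a median of 0.50 on the log2 scale against -0.003 over all genes. The R172K and control arrays did not overlap for 5 members that were higher, Trem2, Ms4a4a, Pla2g7, Cd14 and Ccr2 (15.2% against 7.47% of all genes), and for Timd4, which was lower (3.03% against 8.72% of all genes). In R140Q hearts none of the 33 passed, against 2.20% of all genes, and the median difference from control was 0.13. The count in R172K hearts depended on single arrays. It was 22 without R172K array 3, where 20.9% of all genes were called, 4 without R172K array 2 (8.75% of all genes) and 2 without R172K array 1 (6.66%). It was 3 without control array 1 (7.82%), 2 without control array 2 (7.42%), 6 without control array 3 (9.86%) and 6 without control array 4 (9.14%). Leaving out R172K array 4 gave 7 calls (10.0% of all genes), and leaving out any R140Q array gave 7 to 9 (11.5% to 12.7%).

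**Figure D1:**
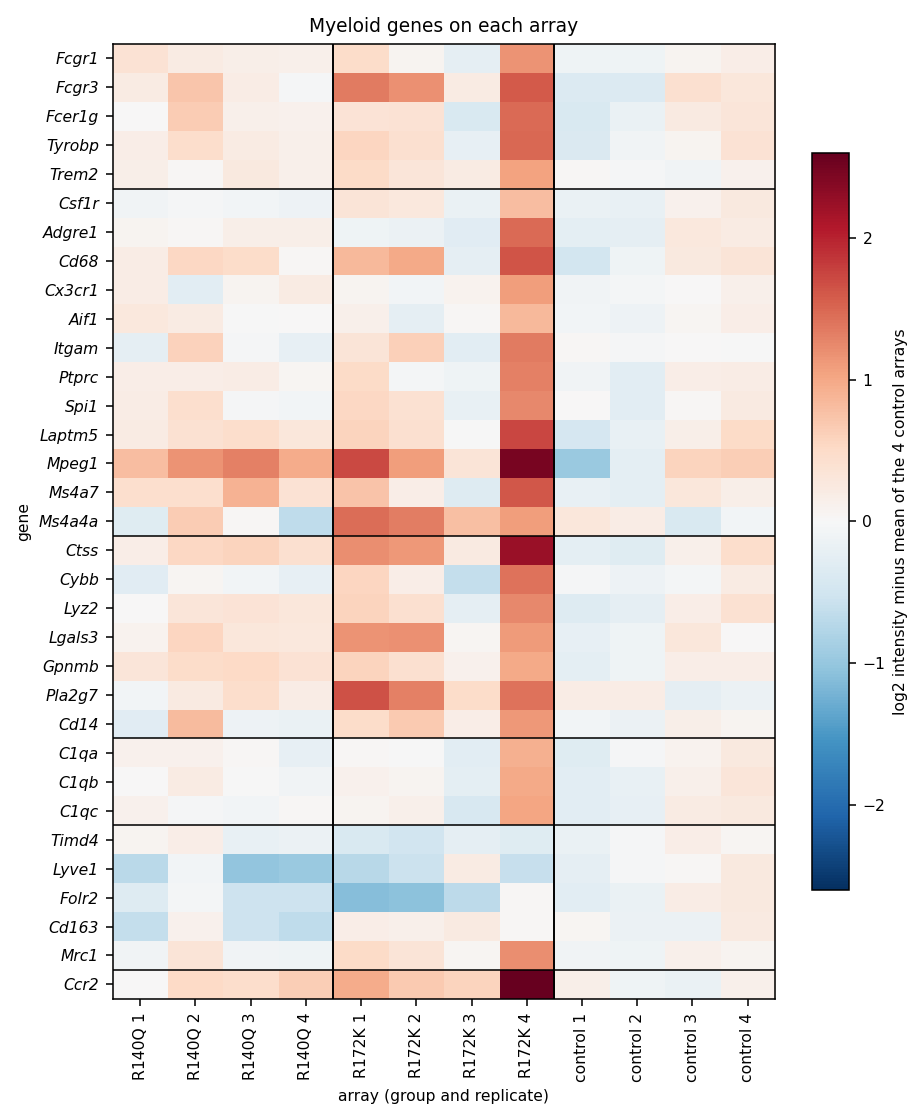
Heat map of the 33 myeloid genes on the 12 arrays, coloured by log2 intensity minus the control mean of the gene, with R140Q and R172K arrays left of the control arrays and genes grouped by role. The column of R172K array 4 is the reddest and that of R172K array 3 is close to the controls, while the resident markers at the bottom include blue cells on mutant arrays.

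Among the Fc receptors and their adaptors, 2 of 5 rose in R172K hearts, against 6.23% of all genes. The other 3 had positive differences that did not pass. Fcgr3, a low-affinity activating receptor for IgG, measured 8.20, 8.03, 7.06 and 8.45 on R172K arrays 1 to 4, 7.06, 7.56, 7.03 and 6.82 on the R140Q arrays and 6.48, 6.49, 7.26 and 7.14 on the control arrays. R172K arrays 1, 2 and 4 lay above every control and R140Q array, while R172K array 3 lay among the controls. The difference from control was 1.09 ± 0.28 (SE), adjusted p = 0.0242 by limma, a 2.13-fold rise, and it failed without R172K array 1, 2 or 4 or control array 1 or 2, with limma adjusted p-values of 0.0012 to 0.0765 over the 12 fits that left out an array. Trem2, a lipid-sensing receptor of macrophages, measured 7.52, 7.35, 7.24 and 8.09 on R172K arrays 1 to 4, 7.18, 7.07, 7.30 and 7.17 on the R140Q arrays and 7.07, 6.99, 6.94 and 7.14 on the control arrays. No R172K array overlapped the controls, and the rise was 0.52 ± 0.15 (SE), adjusted p = 0.0346 by limma, or 1.43-fold. Without R172K array 4 the Trem2 difference was 0.34, with a limma adjusted p of 0.0263, and the call failed without R172K array 1 or any control array, with adjusted p-values of 0.0089 to 0.0848. Mean levels of the other 3 are given as log2 intensity ± SD over 4 arrays a group. Fcgr1 averaged 6.16 ± 0.61 in R172K hearts, 6.01 ± 0.12 in R140Q hearts and 5.79 ± 0.14 in control hearts. Fcer1g averaged 8.13 ± 0.77 in R172K hearts, 7.91 ± 0.29 in R140Q hearts and 7.68 ± 0.34 in control hearts. Tyrobp averaged 8.21 ± 0.70 in R172K hearts, 7.89 ± 0.15 in R140Q hearts and 7.65 ± 0.31 in control hearts. The SD was largest in R172K hearts for each. The shared gamma chain Fcer1g differed from control by 0.45, the adaptor Tyrobp by 0.56 and the high-affinity IgG receptor Fcgr1 by 0.36. For these 3 genes R172K array 4 was the highest of the 12 arrays and R172K array 3 the lowest of the R172K arrays, and their limma adjusted p-values were 0.402, 0.216 and 0.339.

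The promoters of Trem2, Fcgr3 and Ctss, which rose in R172K hearts, are shown because each holds a match to GAGGAA, the purine-rich core bound by PU.1, the myeloid transcription factor encoded by Spi1. These are 3 of the 9 members that rose, and the windows of the other 6 (Pla2g7, Ms4a4a, Lgals3, Ccr2, Gpnmb and Mpeg1) held none. Pla2g7 and Ms4a4a, the members that differed between the mutants, are shown for contrast. Each run is the 250 bases before a gene start, 5′ to 3′ on the gene's strand, from RefSeq on GRCm38.p6, with the match in capitals. TTCCTC in capitals is the same core on the other strand.
Trem2 promoter, chr17:48346151-48346400, plus strand: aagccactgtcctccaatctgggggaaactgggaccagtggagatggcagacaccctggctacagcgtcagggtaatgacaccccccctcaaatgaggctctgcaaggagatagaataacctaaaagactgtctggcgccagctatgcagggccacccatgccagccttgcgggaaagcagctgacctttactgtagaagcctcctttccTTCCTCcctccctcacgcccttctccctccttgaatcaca
Fcgr3 promoter, chr1:171059395-171059644, minus strand: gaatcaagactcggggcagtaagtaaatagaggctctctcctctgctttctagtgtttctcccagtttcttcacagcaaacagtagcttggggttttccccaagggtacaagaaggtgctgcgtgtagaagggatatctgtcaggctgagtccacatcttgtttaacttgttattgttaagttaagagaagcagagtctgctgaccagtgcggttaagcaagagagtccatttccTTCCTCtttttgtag
Ctss promoter, chr3:95526536-95526785, plus strand: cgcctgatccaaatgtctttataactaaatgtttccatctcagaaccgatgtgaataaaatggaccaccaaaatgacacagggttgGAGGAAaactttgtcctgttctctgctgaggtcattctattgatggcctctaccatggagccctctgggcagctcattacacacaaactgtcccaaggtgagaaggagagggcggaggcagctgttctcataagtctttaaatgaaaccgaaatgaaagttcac
Pla2g7 promoter, chr17:43568201-43568450, plus strand: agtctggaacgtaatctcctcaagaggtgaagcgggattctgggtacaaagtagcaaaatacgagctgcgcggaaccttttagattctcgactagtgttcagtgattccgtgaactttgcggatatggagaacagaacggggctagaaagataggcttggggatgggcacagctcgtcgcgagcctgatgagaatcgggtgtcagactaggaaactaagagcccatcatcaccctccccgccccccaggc
Ms4a4a promoter, chr19:11375238-11375487, plus strand: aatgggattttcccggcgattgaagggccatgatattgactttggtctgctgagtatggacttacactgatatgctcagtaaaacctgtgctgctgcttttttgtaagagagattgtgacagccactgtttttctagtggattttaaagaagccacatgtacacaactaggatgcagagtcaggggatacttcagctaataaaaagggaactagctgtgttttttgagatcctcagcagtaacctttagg
The match began 40 bases before the start in Trem2, 15 bases in Fcgr3 and 164 bases in Ctss. RefSeq windows were matched to 26 of the 33 members, and 13 of their 30 windows (43.3%) held GAGGAA on either strand, against 7639 of all 32851 windows (23.3%). Overlapping windows of Fcgr3 were both counted. By gene, 12 of the 26 members held a match, against 25.9% of all genes. Members with a match that did not pass in R172K hearts were Ptprc, Mrc1, Fcgr1, Laptm5, C1qb, C1qc, Itgam, Cd68 and Aif1. The E-box CACGTG, bound by the lysosomal gene regulators MITF and TFEB, was in none of the 30 windows and in 6.0% of all windows. These letter matches are a description of the windows, not evidence of binding.

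Of the 12 genes of macrophage identity and surface receptors, 2 rose in R172K hearts, Ms4a4a and Mpeg1, against 6.23% of all genes. Ms4a4a, a tetraspan membrane protein of macrophages, measured 8.77, 8.64, 8.09 and 8.41 on R172K arrays 1 to 4, 7.00, 7.97, 7.35 and 6.66 on the R140Q arrays and 7.60, 7.50, 6.93 and 7.24 on the control arrays. Every R172K array lay above every other array, and the R172K mean was 8.48 ± 0.30 against 7.32 ± 0.30 in control hearts (SD, n = 4 each). The rise was 1.16 ± 0.25 (SE), adjusted p = 0.0107 by limma, or 2.24-fold, and it passed whichever array was left out. Mpeg1, which encodes the pore-forming protein perforin-2, measured 7.80, 7.16, 6.43 and 8.56 on R172K arrays 1 to 4, 6.90, 7.26, 7.39 and 7.05 on the R140Q arrays and 5.12, 5.84, 6.66 and 6.73 on the control arrays. R172K arrays 1, 2 and 4 lay above all controls, R172K array 3 lay below controls 3 and 4, and the controls themselves spanned 5.12 to 6.73. The rise was 1.40 ± 0.42 (SE), adjusted p = 0.0447 by limma, or 2.64-fold, and the adjusted p ranged from 0.00705 to 0.127 when single arrays were left out, passing only without R172K array 3, control array 3 or control array 4.

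The other 10 genes of macrophage identity and surface receptors did not pass. Csf1r, the receptor for CSF1 and IL-34, differed from control by 0.31 ± 0.17 (SE), adjusted p = 0.27, in R172K hearts by limma. Its mean was 8.79 ± 0.40 in R172K hearts, 8.40 ± 0.04 in R140Q hearts and 8.48 ± 0.22 in control hearts. Adgre1, the adhesion receptor long used to mark mouse macrophages, measured 7.17, 7.12, 6.99 and 8.74 on R172K arrays 1 to 4, 7.34, 7.30, 7.42 and 7.44 on the R140Q arrays and 7.02, 7.04, 7.55 and 7.49 on the control arrays. Only R172K array 4 exceeded the controls, and without it the difference of 0.23 became -0.19. Cx3cr1, the fractalkine receptor, measured 7.00, 6.86, 7.01 and 8.02 on R172K arrays 1 to 4, 7.12, 6.66, 7.00 and 7.13 on the R140Q arrays and 6.84, 6.87, 6.95 and 7.05 on the control arrays. As for Adgre1, R172K array 4 stood alone, and the difference of 0.29 ± 0.21 (SE), adjusted p = 0.419 by limma, was 0.03 without it. Aif1, the actin-binding protein IBA1, averaged 5.30 ± 0.46 in R172K hearts, 5.23 ± 0.14 in R140Q hearts and 5.11 ± 0.13 in control hearts. It differed by 0.19 with R172K array 4 and -0.03 without it. Cd68, a lysosomal glycoprotein of phagocytes, differed by 0.81 ± 0.31 (SE), adjusted p = 0.114 by limma, with R172K arrays 1, 2 and 4 above all controls. Its level averaged 8.65 ± 0.78 in R172K hearts, 8.15 ± 0.24 in R140Q hearts and 7.84 ± 0.38 in control hearts. The remaining members were Ptprc, the leukocyte phosphatase CD45, Itgam, the integrin CD11b, Spi1, the lysosomal membrane protein Laptm5 and Ms4a7, a relative of Ms4a4a, with differences of 0.41 to 0.69 that did not pass. Ptprc averaged 7.07 ± 0.66 in R172K hearts, 6.81 ± 0.07 in R140Q hearts and 6.66 ± 0.23 in control hearts. Itgam averaged 7.04 ± 0.68 in R172K hearts, 6.56 ± 0.39 in R140Q hearts and 6.53 ± 0.03 in control hearts. Spi1 averaged 7.34 ± 0.59 in R172K hearts, 6.97 ± 0.23 in R140Q hearts and 6.84 ± 0.21 in control hearts. In these 3 genes the R172K mean was the highest and the R140Q mean lay within 0.15 of control. Laptm5 averaged 8.97 ± 0.75 in R172K hearts, 8.62 ± 0.11 in R140Q hearts and 8.29 ± 0.41 in control hearts. Ms4a7 averaged 6.17 ± 0.83 in R172K hearts, 6.16 ± 0.25 in R140Q hearts and 5.62 ± 0.27 in control hearts. For these 2 both mutant means lay above the control mean. Without R172K array 3, Csf1r, Cd68, Itgam, Spi1, Laptm5 and Ms4a7 passed against control, with limma adjusted p-values of 0.0038 to 0.0487. Adgre1, Cx3cr1, Aif1 and Ptprc did not pass in that fit.

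Lysosomal, oxidative and secreted effectors had 4 of 7 members higher in R172K hearts, Pla2g7, Ctss, Lgals3 and Gpnmb, against 6.23% of all genes. Pla2g7, the secreted phospholipase that hydrolyses platelet-activating factor, measured 9.16, 8.81, 7.98 and 8.93 on R172K arrays 1 to 4, 7.43, 7.74, 7.96 and 7.71 on the R140Q arrays and 7.70, 7.69, 7.28 and 7.35 on the control arrays. The R172K arrays lay above all 8 others, R172K array 3 by the smallest margin. The rise was 1.21 ± 0.21 (SE), adjusted p = 0.00472 by limma, or 2.32-fold, with a mean of 8.72 ± 0.51 in R172K hearts against 7.51 ± 0.22 in control hearts (SD, n = 4 each). It passed whichever array was left out, with adjusted p-values of 7.47e-05 to 0.0174 by limma.

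Ctss, the lysosomal protease cathepsin S, measured 8.14, 8.06, 7.17 and 9.18 on R172K arrays 1 to 4, 7.10, 7.48, 7.50 and 7.35 on the R140Q arrays and 6.67, 6.61, 7.06 and 7.38 on the control arrays. R172K array 3 lay below control 4, and the other R172K arrays lay above all controls, for a rise of 1.21 ± 0.32 (SE), adjusted p = 0.0275 by limma. It failed without R172K array 1 or 2 or control array 1 or 2, with limma adjusted p-values of 0.00163 to 0.0798 over the 12 fits. Lgals3, the carbohydrate-binding protein galectin-3, measured 8.15, 8.17, 7.05 and 8.09 on R172K arrays 1 to 4, 7.08, 7.56, 7.29 and 7.26 on the R140Q arrays and 6.78, 6.88, 7.28 and 7.01 on the control arrays. The other 3 R172K arrays lay between 8.09 and 8.17 while R172K array 3 lay among the controls, and the rise was 0.87 ± 0.22 (SE), adjusted p = 0.0214 by limma. That call failed without R172K array 1, 2 or 4 or control array 1 or 2, with adjusted p-values of 0.000128 to 0.0714 by limma. Gpnmb, a membrane glycoprotein of lipid-laden macrophages, measured 6.63, 6.47, 6.16 and 7.04 on R172K arrays 1 to 4, 6.37, 6.53, 6.56 and 6.42 on the R140Q arrays and 5.80, 5.94, 6.22 and 6.22 on the control arrays. R172K array 3 lay below controls 3 and 4, and the rise was 0.53 ± 0.16 (SE), adjusted p = 0.044 by limma. It passed only without R172K array 3 among the 12 fits that left out an array, with adjusted p-values of 0.00539 to 0.126 by limma.

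The other 3 effectors did not pass. Cd14, the lipopolysaccharide co-receptor, measured 6.95, 7.15, 6.64 and 7.60 on R172K arrays 1 to 4, 6.17, 7.29, 6.35 and 6.30 on the R140Q arrays and 6.40, 6.31, 6.63 and 6.55 on the control arrays. All 4 R172K arrays lay above all 4 controls, yet R140Q array 2 was higher than 3 of them, and the difference from control was 0.61 ± 0.24 (SE), adjusted p = 0.109 by limma. Cybb, the catalytic subunit of the phagocyte oxidase, differed by 0.38 and Lyz2, macrophage lysozyme, by 0.50, with limma adjusted p-values of 0.484 and 0.23. Cybb averaged 8.53 ± 0.85 in R172K hearts, 8.01 ± 0.16 in R140Q hearts and 8.15 ± 0.15 in control hearts. Lyz2 averaged 10.92 ± 0.61 in R172K hearts, 10.65 ± 0.16 in R140Q hearts and 10.42 ± 0.34 in control hearts. The R172K arrays spread most in both. Lyz2 has the near-identical neighbour Lyz1, whose difference was 0.45, and cross-hybridisation between them was not tested.

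**Figure D2:**
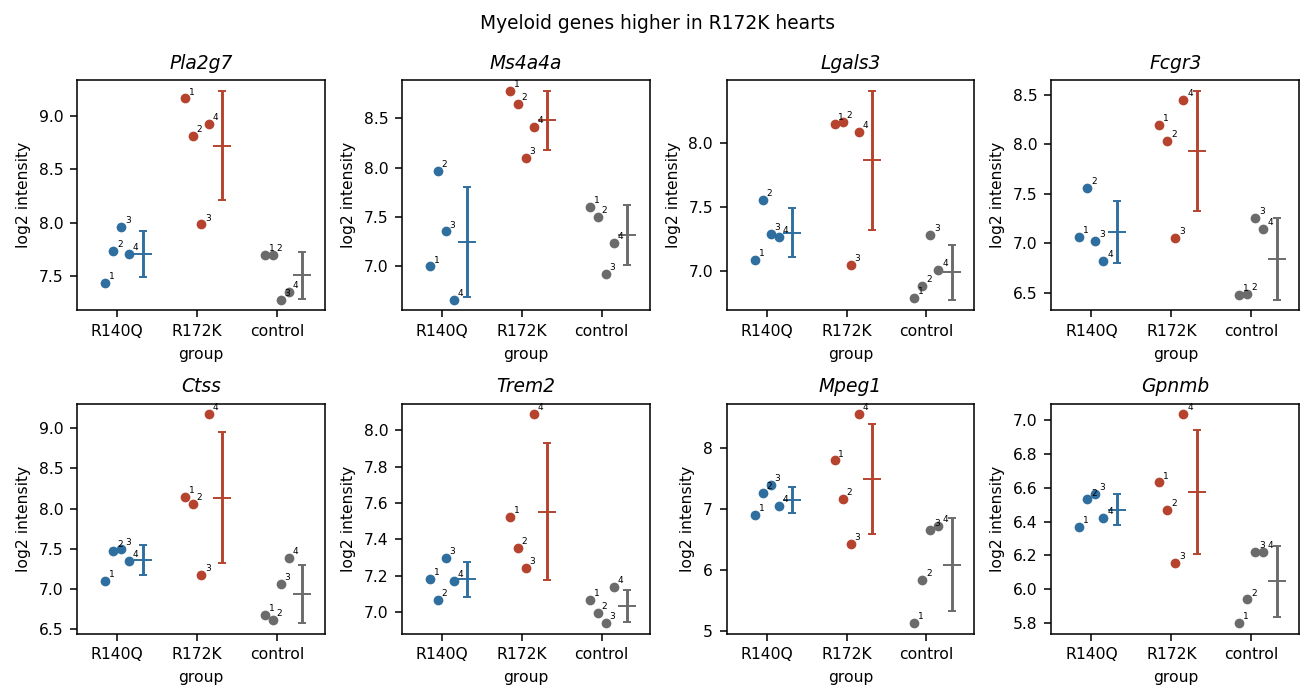
Log2 intensity of 8 of the 9 members that rose in R172K hearts (Ccr2 is plotted with the resident markers), with a dot per array numbered by replicate and the mean ± SD of each group of 4, R140Q and R172K left of control. Ms4a4a and Pla2g7 show R172K dots above every dot of the other groups, whereas for Lgals3 and Ctss the dot of R172K array 3 lies among the controls.

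The complement C1q genes, whose products form the recognition molecule of the classical pathway and are made by tissue macrophages, did not pass. C1qa differed from control by 0.17, C1qb by 0.23 and C1qc by 0.20 in R172K hearts, with limma adjusted p-values of 0.689, 0.571 and 0.654 and none of the 3 under an unadjusted p of 0.05. C1qb measured 9.54, 9.50, 9.18 and 10.42 on R172K arrays 1 to 4, 9.44, 9.65, 9.42 and 9.35 on the R140Q arrays and 9.15, 9.25, 9.57 and 9.76 on the control arrays. R172K array 4 was highest and the other 3 R172K arrays lay within the control range, and without R172K array 4 the differences were -0.09 for C1qa, -0.03 for C1qb and -0.07 for C1qc. The neighbours had the same order of group means as C1qb. C1qa averaged 8.21 ± 0.52 in R172K hearts, 8.06 ± 0.16 in R140Q hearts and 8.04 ± 0.25 in control hearts. C1qc averaged 8.74 ± 0.61 in R172K hearts, 8.55 ± 0.08 in R140Q hearts and 8.53 ± 0.27 in control hearts. The 3 genes neighbour each other in the genome, so they are not independent observations.

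The 5 resident markers did not share a direction in R172K hearts: 1 fell, against 6.78% of all genes. Their differences ranged from -0.71 to 0.53 with a median of -0.36. Timd4, the phosphatidylserine receptor TIM4, measured 5.34, 5.25, 5.50 and 5.42 on R172K arrays 1 to 4, 5.82, 5.91, 5.55 and 5.59 on the R140Q arrays and 5.57, 5.70, 5.91 and 5.78 on the control arrays. All 4 R172K arrays lay below all 4 controls and all 4 R140Q arrays, on a dim probe set. The mean was 5.38 ± 0.11 in R172K hearts and 5.74 ± 0.14 in control hearts (SD, n = 4 each), a difference of -0.36 ± 0.10 (SE), adjusted p = 0.0299 by limma, or 1.29-fold lower. The call failed without R172K array 1 or 2 or control array 2, 3 or 4, with adjusted p-values of 0.0168 to 0.0824 by limma.

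Folr2, folate receptor beta, measured 7.19, 7.23, 7.61 and 8.33 on R172K arrays 1 to 4, 7.96, 8.24, 7.77 and 7.76 on the R140Q arrays and 8.03, 8.12, 8.49 and 8.56 on the control arrays. R172K arrays 1 to 3 lay below all controls and R172K array 4 lay within their range. The difference was -0.71 ± 0.22 (SE), adjusted p = 0.0547 by limma with all arrays, and -0.96, adjusted p = 0.00639, without R172K array 4. Lyve1, a hyaluronan receptor that lymphatic endothelium also carries, measured 9.19, 9.35, 10.11 and 9.31 on R172K arrays 1 to 4, 9.21, 9.83, 8.87 and 8.94 on the R140Q arrays and 9.67, 9.88, 9.93 and 10.15 on the control arrays. R172K arrays 1, 2 and 4 lay below all controls and R172K array 3 lay within them, for a difference of -0.41 ± 0.22 (SE), adjusted p = 0.27 by limma. Without R172K array 3 that difference was -0.62, adjusted p = 0.0403.

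The scavenger receptors among the resident markers ran differently. Cd163, which takes up haemoglobin-haptoglobin complexes, measured 7.42, 7.38, 7.48 and 7.28 on R172K arrays 1 to 4, 6.63, 7.35, 6.71 and 6.59 on the R140Q arrays and 7.31, 7.10, 7.10 and 7.49 on the control arrays. The R172K arrays lay within the control range, while R140Q arrays 1, 3 and 4 lay below all other arrays, and the difference of R172K from control was 0.14 ± 0.15 (SE), adjusted p = 0.616 by limma. Mrc1, the mannose receptor CD206, measured 8.76, 8.59, 8.31 and 9.46 on R172K arrays 1 to 4, 8.17, 8.58, 8.16 and 8.15 on the R140Q arrays and 8.16, 8.14, 8.39 and 8.33 on the control arrays. R172K arrays 1, 2 and 4 lay above all controls, for a difference of 0.53 ± 0.19 (SE), adjusted p = 0.098 by limma. For Mrc1 the difference without R172K array 3 was 0.68, adjusted p = 0.0203 by limma.

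Ccr2, the receptor for the monocyte-attracting chemokine CCL2, was the 1 recruited marker, and it rose in R172K hearts. It measured 5.56, 5.27, 5.16 and 7.17 on R172K arrays 1 to 4, 4.61, 5.11, 5.05 and 5.23 on the R140Q arrays and 4.75, 4.48, 4.42 and 4.72 on the control arrays. All 4 R172K arrays lay above all 4 controls, with R172K array 4 far above the rest. The rise was 1.20 ± 0.35 (SE), adjusted p = 0.0386 by limma, or 2.3-fold, and 0.74, adjusted p = 0.0111, without R172K array 4. The call failed without each of the 4 control arrays, R140Q array 3, R140Q array 4 or R172K array 1, with limma adjusted p-values of 0.0111 to 0.0935 over the 12 fits. It also failed with only the 2 groups in the fit, every probe set tested, a pseudocount of 16 or trended, robust variances, and in all at 12 of 23 alternative settings. Ccr2 minus Timd4, a difference of log2 intensities of 2 probe sets that is read only between arrays, was 0.22, 0.02, -0.34 and 1.76 on R172K arrays 1 to 4, -1.21, -0.80, -0.50 and -0.36 on the R140Q arrays and -0.82, -1.23, -1.48 and -1.07 on the control arrays. Every R172K array lay above every R140Q and control array in this contrast. The separation from the controls followed from those of Ccr2 and Timd4 already given. From the R140Q arrays it was narrow, at -0.34 on R172K array 3 against -0.36 on R140Q array 4. How often other gene pairs separate in this way was not counted. Mrc1 minus Folr2 was 1.58, 1.36, 0.71 and 1.13 on the R172K arrays, 0.21, 0.34, 0.39 and 0.39 on the R140Q arrays and 0.13, 0.02, -0.10 and -0.23 on the control arrays. Both contrasts were chosen after the values were seen, and neither was tested.

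**Figure D3:**
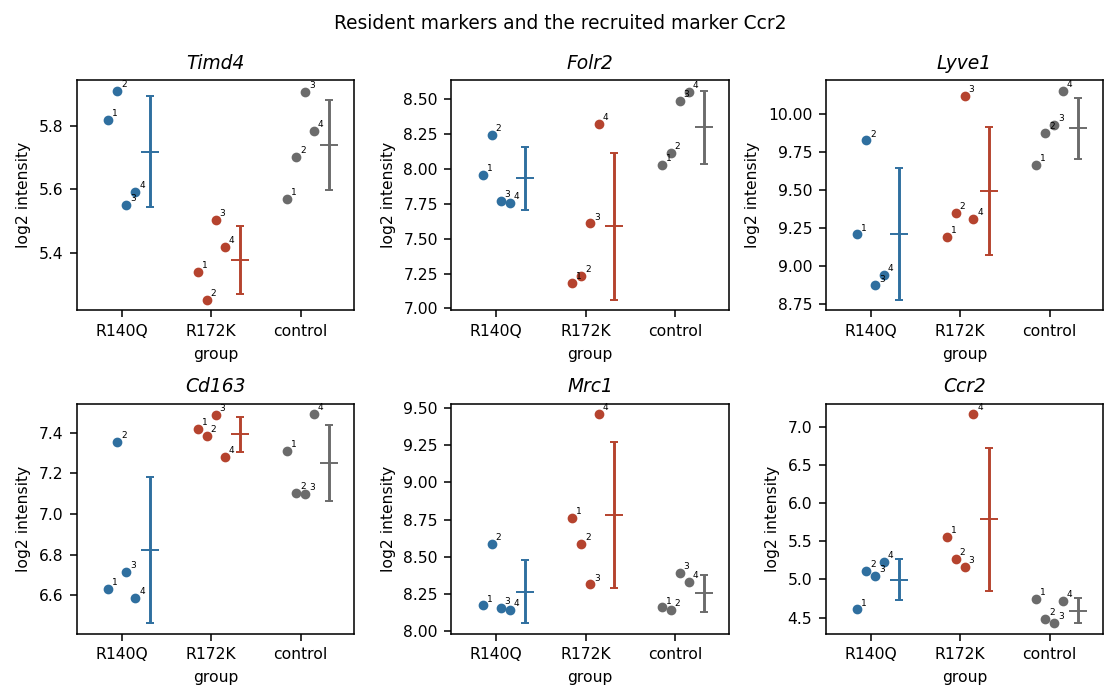
Log2 intensity of the 5 resident markers and the recruited marker Ccr2, with a dot per array numbered by replicate and the mean ± SD of each group of 4, R140Q and R172K left of control. Timd4 is lowest on the R172K arrays, where Ccr2 lies above all controls but overlaps the R140Q arrays. Cd163 is low on R140Q arrays 1, 3 and 4, and Lyve1 is low on these and on R172K arrays 1, 2 and 4.

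Not all genes followed the same arrays. R172K array 4 was the highest of the 12 arrays for 26 of the 33 genes, and R172K array 3 was the lowest R172K array for 27. Counting genes above all 4 controls gave 23, 18, 5 and 29 on R172K arrays 1 to 4 and 7, 19, 9 and 7 on the R140Q arrays. The shares of all genes in these positions on each array were not counted, so these counts describe the members without a background. The median gene minus its control mean was 0.49, 0.33, -0.12 and 1.20 on the R172K arrays, 0.10, 0.31, 0.13 and 0.03 on the R140Q arrays and -0.19, -0.14, 0.13 and 0.22 on the control arrays. R172K array 3 thus lay at the level of the controls for the median gene while lying above them for Pla2g7, Ms4a4a, Trem2, Cd14 and Ccr2 and below them for 9 genes, Timd4 among them. R140Q array 2 had the highest median of the R140Q arrays. Without R172K array 4, the calls were Trem2, Ms4a4a, Ctss, Pla2g7 and Ccr2 higher and Timd4 and Folr2 lower, and the median difference was 0.23. Without R172K array 3, 20 rose and 2 fell, among 20.9% of all genes, and the median was 0.71. R172K array 4 was also the R172K array farthest from control, and R172K array 3 the nearest, in the summed activated fibroblast genes and cardiomyocyte markers, and their part in the myeloid differences was not tested.

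**Figure D4:**
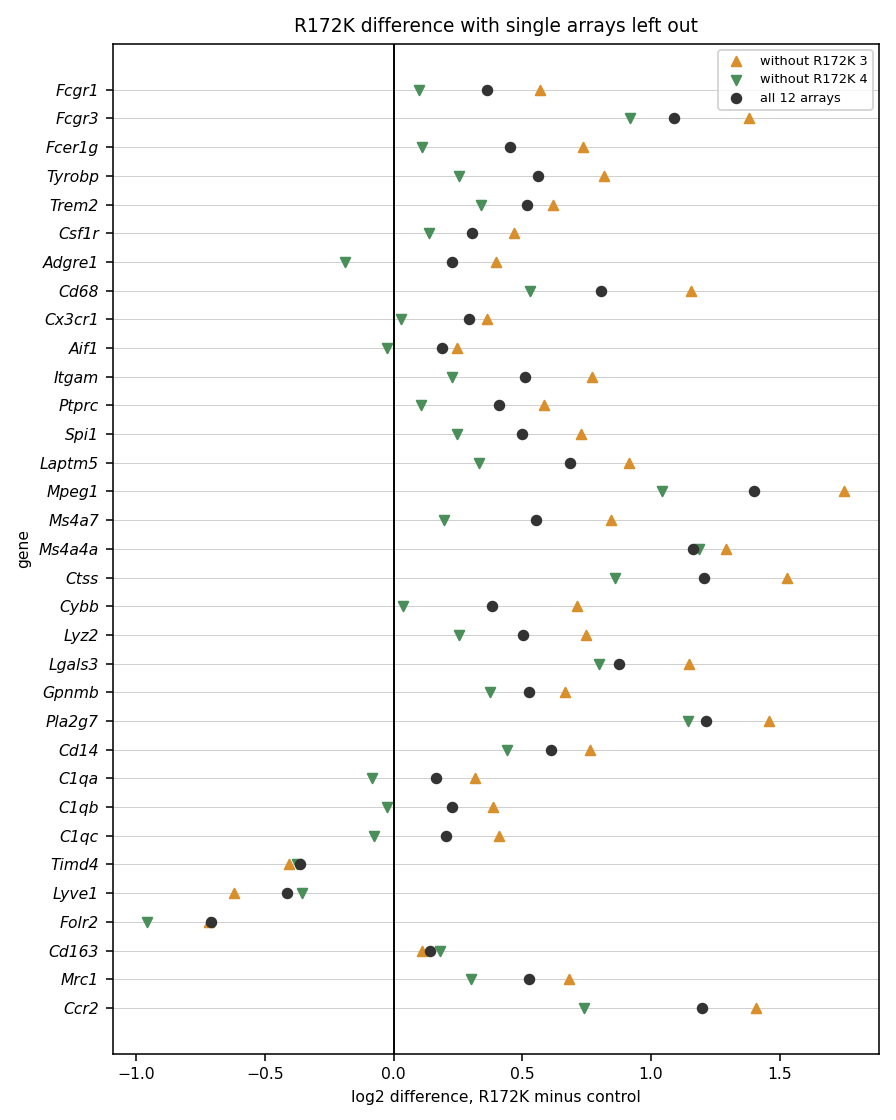
Log2 difference, R172K minus control, of each of the 33 genes with all 12 arrays (circles), without R172K array 3 (upward triangles) and without R172K array 4 (downward triangles). Without R172K array 4, Adgre1, Aif1 and the C1q genes lie left of 0, while Ms4a4a, Pla2g7 and Timd4 stay close to their values with all arrays.

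In R140Q hearts no member passed, against 2.20% of all genes (1.08% higher and 1.12% lower). The fit pooled the spread of each gene over all 3 groups, so the R172K arrays also set the SEs and p-values of this comparison. At an unadjusted p of 0.05 by limma, 4 members did, against 17% of all genes, namely Mpeg1 and Gpnmb higher, Lyve1 and Cd163 lower. The difference from control was positive for 26 of 33 members, with a median of 0.13 against 0.00 over all genes. The arrays of both groups did not overlap for 3 members that were higher, Mpeg1, Ms4a7 and Gpnmb (9.09% against 7.79% of all genes), and for none that was lower (7.04% of all genes). Beside these values, the median difference of the 5 atrial markers in R140Q hearts was -0.89, none of them passing. At an unadjusted p of 0.05 by limma, 3 of them were lower, against 17% of all genes in either direction. The part of the atrial markers in the myeloid values was not tested. From the levels above, Mpeg1 differed by 1.06 ± 0.42 (SE), adjusted p = 0.211, and Gpnmb by 0.43 ± 0.16 (SE), adjusted p = 0.179, by limma. Ms4a7 measured 6.06, 6.05, 6.53 and 5.99 on R140Q arrays 1 to 4 and 5.43, 5.35, 5.92 and 5.77 on the control arrays. In Ms4a7, R140Q array 3 was the highest and the other 3 lay just above the highest control, for a difference of 0.54 ± 0.32 (SE), adjusted p = 0.44 by limma.

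The other members that rose in R172K hearts had differences from control in R140Q hearts that did not pass by limma. Pla2g7 differed by 0.20 ± 0.21 (SE), adjusted p = 0.71, and Ms4a4a by -0.07 ± 0.25 (SE), adjusted p = 0.93. Ctss differed by 0.43 ± 0.32 (SE), adjusted p = 0.568, and Fcgr3 by 0.27 ± 0.28 (SE), adjusted p = 0.702. Lgals3 differed by 0.31 ± 0.22 (SE), adjusted p = 0.537, and Trem2 by 0.15 ± 0.15 (SE), adjusted p = 0.693. Each of these 6 had R140Q arrays within the control range. Cx3cr1 differed by 0.05 ± 0.21 (SE), adjusted p = 0.941, also by limma.

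Lyve1 differed in R140Q hearts by -0.69 ± 0.22 (SE), adjusted p = 0.129, and Cd163 by -0.43 ± 0.15 (SE), adjusted p = 0.158, by limma. For both genes R140Q arrays 1, 3 and 4 lay below all controls, whereas R140Q array 2 lay within the control range. Without R140Q array 2 both passed, at -0.90, adjusted p = 0.0408, for Lyve1 and -0.61, adjusted p = 0.0102, for Cd163 by limma. R140Q array 2 was the highest R140Q array for Cd14, Itgam and Ccl6, a myeloid chemokine. Among the R140Q arrays it had the highest sums of neutrophil markers, 270.1 units, and of myeloid chemokines, 2837 units, but the lowest of B cell markers, 104 units. Its atrial marker sum, 616 units, was the lowest of all arrays, with Nppa at 7.85 against 12.74 to 13.20 on the other R140Q arrays. What part these had in the Lyve1 and Cd163 values was not tested. Folr2 differed from control by -0.37 ± 0.22 (SE), adjusted p = 0.456, Timd4 by -0.02 ± 0.10 (SE), adjusted p = 0.945, and Mrc1 by 0.01 ± 0.19 (SE), adjusted p = 0.987, by limma, with 95% intervals of -0.85 to 0.12, -0.24 to 0.19 and -0.41 to 0.43. Ccr2 differed by 0.41 ± 0.35 (SE), adjusted p = 0.625 by limma, with an interval of -0.34 to 1.16, and R140Q arrays 2, 3 and 4 lay above all controls. The width of that interval includes the spread of the R172K arrays. For Ccr2 the SD was 0.94 in R172K hearts, 0.27 in R140Q hearts and 0.17 in control hearts. Beside the lung epithelial RNA on R140Q array 4, none of 3 alveolar macrophage markers passed in R140Q hearts by limma. Chil3 was higher at an unadjusted p of 0.05 by limma, with its highest R140Q value, 3.75, on that array. Marco was also highest on R140Q array 4, at 6.16 against 5.85 to 5.89 on the other R140Q arrays, while Siglecf, at 6.00, was not. The alveolar marker sum was the highest of all arrays there, at 149 units, and its part in the myeloid values was not tested.

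**Figure D5:**
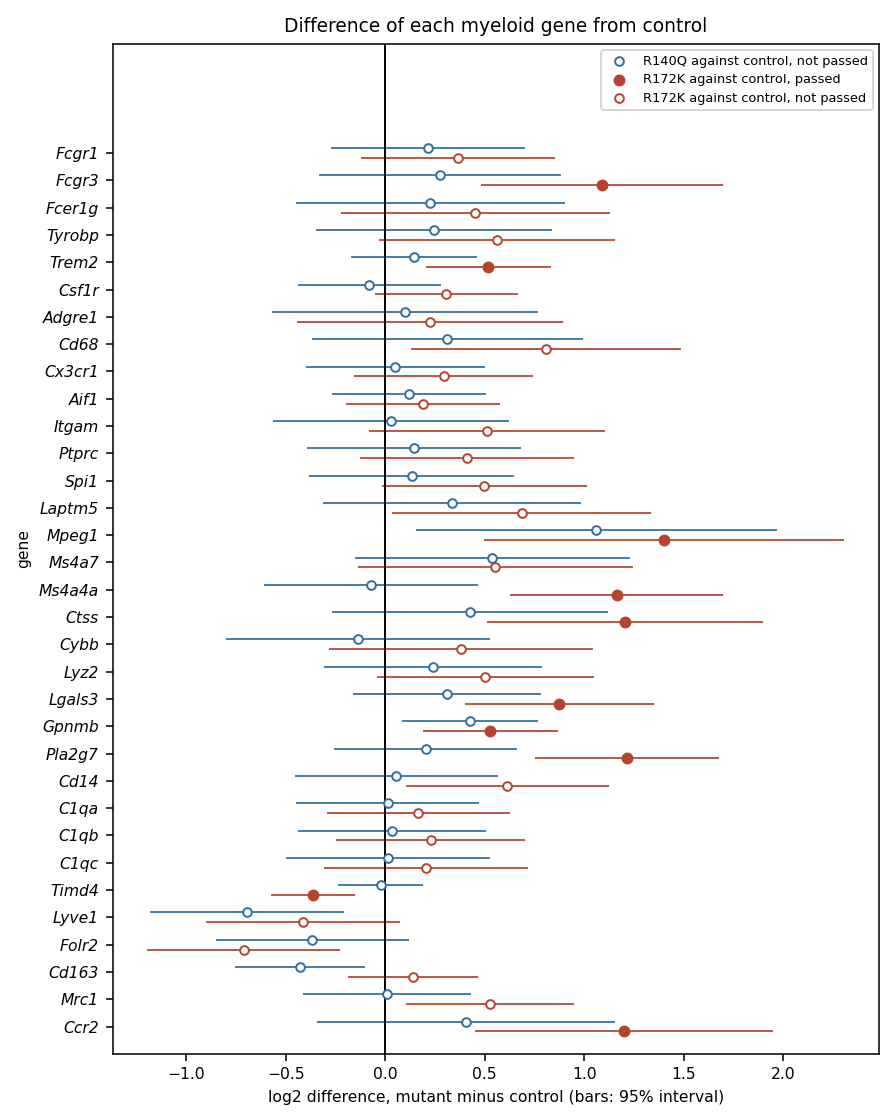
Log2 difference of each of the 33 genes from control in R140Q and R172K hearts, with points for the estimates from limma, bars for 95% intervals, and filled points for those that passed. Filled points appear in R172K alone, with 9 to the right of 0 and Timd4 to the left.

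Set directly against R140Q hearts, R172K hearts had higher levels of 2 of the 33 members (6.06%, against 1.48% of all genes in either direction and 0.487% higher), and of no member lower (0.998% of all genes). Ms4a4a was higher by 1.23 ± 0.25 (SE), adjusted p = 0.0406 by limma, a fold of 2.35. Pla2g7 was higher by 1.01 ± 0.21 (SE), adjusted p = 0.045 by limma, a fold of 2.02. For both genes every R172K array exceeded every R140Q array, as happened for 3.07% of all genes. These calls lay close to the threshold: the adjusted p by limma ranged from 0.00926 to 0.138 for Ms4a4a and from 0.000894 to 0.143 for Pla2g7 over the 12 fits that left out an array, passing for Ms4a4a only without R172K array 3, R172K array 4 or R140Q array 2, and for Pla2g7 only without R172K array 3. The difference was positive for 31 of 33 members, with a median of 0.34 against -0.003 over all genes. That median rested on single arrays, being 0.01 without R172K array 4 and 0.54 without R172K array 3, and 14 members changed sign in at least 1 of the alternative fits. Leaving out R172K array 3 gave 10 members, with 7.91% of all genes called in that fit, and leaving out R172K array 4 gave 1, with 1.48% of all genes. Leaving out R172K array 1 or 2, R140Q array 1, 3 or 4 or any control array gave 0 members, with 0.00502% to 0.592% of all genes called in those fits. The mutants also differed in atrial markers, whose sums did not overlap (10584 to 19727 units on the R172K arrays and 616 to 9845 on the R140Q arrays). These sums consist largely of Nppa on most arrays. By limma, 1 of 5 atrial markers passed, Myl4, which was 3.52 higher in R172K hearts, and what part this difference in atrial markers had in the myeloid values was not tested. Timd4 did not overlap between the mutants, being lower on all R172K arrays (4.64% of all genes), with a difference of -0.34 ± 0.10 (SE), adjusted p = 0.1 by limma. Cd163 was 0.57 ± 0.15 (SE) higher in R172K hearts with an interval of 0.24 to 0.90 and an adjusted p of 0.079, and 0.75, adjusted p = 0.0162, by limma without R140Q array 2. For the other members that rose against control in R172K hearts, none passed between the mutants by limma. Fcgr3 differed by 0.82 ± 0.28 (SE), adjusted p = 0.164, with an interval of 0.21 to 1.42. Ctss differed by 0.78 ± 0.32 (SE), adjusted p = 0.244, with an interval of 0.09 to 1.47. Lgals3 differed by 0.56 ± 0.22 (SE), adjusted p = 0.214, with an interval of 0.09 to 1.04. These 3 intervals lie above 0 without passing the adjusted threshold, as do those of Trem2, at 0.06 to 0.69 around 0.37 ± 0.15 (SE), adjusted p = 0.217, and Ccr2, at 0.04 to 1.54 around 0.79 ± 0.35 (SE), adjusted p = 0.274. Gpnmb differed by 0.10 ± 0.16 (SE), adjusted p = 0.827, with an interval of -0.24 to 0.44, and Mpeg1 by 0.34 ± 0.42 (SE), adjusted p = 0.776, with an interval of -0.57 to 1.25. Among the remaining resident markers and Cx3cr1, Mrc1 differed by 0.51 ± 0.19 (SE), adjusted p = 0.203, Folr2 by -0.34 ± 0.22 (SE), adjusted p = 0.499, Lyve1 by 0.28 ± 0.22 (SE), adjusted p = 0.614, and Cx3cr1 by 0.24 ± 0.21 (SE), adjusted p = 0.647, all by limma.

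Partners of the members gave further calls in R172K against control by limma, where 6.23% of all genes rose and 6.78% fell. No gene of these pathway lists passed in R140Q against control by limma, against 2.20% of all genes. Both measured relatives of Fcgr3 rose. Fcgr2b, the inhibitory IgG receptor, measured 8.90, 8.40, 7.88 and 9.29 on R172K arrays 1 to 4, 7.41, 7.91, 7.51 and 7.14 on the R140Q arrays and 7.42, 7.39, 7.56 and 7.56 on the control arrays. All 4 R172K arrays lay above all controls, for 1.14 ± 0.25 (SE), adjusted p = 0.0114 against control and 1.12 ± 0.25 (SE), adjusted p = 0.0468 against R140Q by limma. Fcgr4, an activating IgG receptor beside Fcgr3 in the genome, rose by 0.83, adjusted p = 0.0241 by limma. Fcgr2b and Fcgr3 are similar in sequence, and cross-hybridisation was not tested. Of 11 measured genes of signalling below the adaptors, 4 rose: the phosphatase Inpp5d by 0.57, the kinase Syk by 0.45, the kinase Btk by 0.43 and the adaptor Lat2 by 0.33, with limma adjusted p-values of 0.00772, 0.0355, 0.0354 and 0.0326.

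Of 4 macrophage growth factor genes, Il34, a ligand of Csf1r, rose by 0.31, adjusted p = 0.0163 by limma, and the list's median was -0.08. Csf1, the other ligand of Csf1r, differed by -0.41 ± 0.13 (SE), adjusted p = 0.0537, in the opposite direction by limma. Of 16 myeloid chemokines, 2 rose and 1 fell, where 6.23% of all genes rose and 6.78% fell, and the list's median was 0.32. Cx3cl1, the ligand of Cx3cr1, rose by 0.98, adjusted p = 0.0298, and Ccl6 by 0.87, adjusted p = 0.0499, while the stromal chemokine Cxcl12 fell by 0.38, adjusted p = 0.0389, all by limma. The chemokine Ccl2 differed from control by 1.10 and Ccl7 by 0.25, with limma adjusted p-values of 0.149 and 0.722. The 6 measured monocyte markers include the member Ccr2, already given above, and the chitinase-like gene Chil3, also listed as an alveolar macrophage marker. Both rose, Chil3 by 0.40 at a level near the bottom of the scale, and the list's median was 0.36. Of 8 genes of lipid-associated macrophages, the tetraspanin Cd63 rose by 0.55, adjusted p = 0.0339 by limma. On R172K array 3 Cd63 measured 9.36, within the control range of 9.15 to 9.49. None of 9 other complement genes passed, with 2 higher at an unadjusted p of 0.05, and none of 4 oxidase partners passed, with none at an unadjusted p of 0.05. Of all genes, 26.6% were under an unadjusted p of 0.05 by limma in either direction.

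Markers of other cells gave these values in R172K against control by limma, where 6.23% of all genes rose and 6.78% fell. None of 7 neutrophil, 7 T and NK cell, 3 B cell, 6 dendritic cell, 5 mast cell, 5 lung epithelial, 5 atrial or 2 erythroid markers passed, and 1 neutrophil, 1 T and NK cell, 1 dendritic cell and 1 mast cell marker were higher at an unadjusted p of 0.05. That p was reached by 26.6% of all genes in either direction. Neutrophil markers summed to 184 to 225 units on the R172K arrays, 178 to 270.1 on the R140Q arrays and 166 to 185 on the control arrays, ranges that overlap little between R172K and control. The T and NK cell markers summed to 245 to 303 on the R172K arrays, 239 to 278 on the R140Q arrays and 235 to 248 on the control arrays. Dendritic cell markers summed to 282 to 379 on the R172K arrays, 307 to 333 on the R140Q arrays and 259 to 307 on the control arrays, and mast cell markers to 266 to 387 on the R172K arrays, 274 to 309 on the R140Q arrays and 235 to 332 on the control arrays. B cell markers summed to 103 to 116 on the R172K arrays, 104 to 146 on the R140Q arrays and 99.8 to 111 on the control arrays, and alveolar macrophage markers to 127 to 139 on the R172K arrays, 129.6 to 149 on the R140Q arrays and 126 to 142 on the control arrays. The ranges of the mutants and control overlapped for these 5 lists. The 6 monocyte markers, Ccr2 among them, summed to 225 to 574 units on the R172K arrays, with R172K array 4 highest. Their sums were 227 to 315 on the R140Q arrays and 199 to 283 on the control arrays. All 6 activated fibroblast genes rose, with a median difference of 2.68, and 3 of 7 ventricular cardiomyocyte markers fell, namely Myl2 by 0.54, Ryr2 by 0.49 and Pln by 0.26. What part these had in the myeloid values was not tested.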

How the data were processed

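Hearts of 3 groups were measured on 12 arrays, 4 per group, grouped by the labels. The deposited values are intensities on a linear scale that the authors made with RMA, per the submitters' processing notes. The sources used here give neither the version of RMA nor a genome build, and the linear scale was read from the values, which reach 17591 units. RMA usually includes a step that brings arrays to a common distribution, after which values show relative and not absolute levels.

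Of 34760 probe sets, 21640 carried 1 gene symbol, 1321 carried several and 11799 were not listed in the platform annotation. The probe set with the highest mean was kept per gene, leaving 19937 genes, and no filter on dim genes was applied. Values were taken to log2, and group means were fitted over all 12 arrays with limma 3.58.1 in R 4.3.3 (lmFit, eBayes, 9 residual degrees of freedom). The contrasts were R140Q against control, R172K against control and R172K against R140Q, with Benjamini-Hochberg adjustment over all genes and a threshold of 0.05. The fit was tested on simulated data. Every member has its level per group, and values per array are given for members that passed and for resident and recruited markers. Of the other lists, genes that passed are named, up to 4 per list and contrast. The 33 members and the other gene lists were chosen with earlier results of these data known, so counts over them are descriptive and no test over a list was made. Alternatives varied the groups in the fit, probe set choice, scaling, pseudocount, variance model, array weights, threshold and arrays left out. Promoter windows came from RefSeq on GRCm38.p6.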

Additional observations from a re-analysis of the deposited data

Results flagged for a closer look

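In 99 comparisons of an array with the other 3 of its group, 9 values stood apart from the rest by Dixon's criterion at the 95% level, which chance gives in about 1 of 20 groups. On R172K array 4, Adgre1 was 8.74 against 6.99 to 7.17 on the other R172K arrays, and Cx3cr1 was 8.02 against 6.86 to 7.01. On R172K array 3, Lgals3 was low at 7.05 against 8.09 to 8.17, and Lyve1 was high at 10.11 against 9.19 to 9.35. On R140Q array 2, Cd14 was 7.29 against 6.17 to 6.35, Cd163 was 7.35 against 6.59 to 6.71 and Mrc1 was 8.58 against 8.15 to 8.17. R140Q array 3 was high for Ms4a7, at 6.53 against 5.99 to 6.06, and R140Q array 4 was low for Ptprc, at 6.71 against 6.84 to 6.85. All are log2 intensities.

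The effects of the mutants relative to control differed for Ms4a4a, by 1.23 on the log2 scale (R172K minus R140Q), and for Pla2g7, by 1.01, by the direct limma contrast between the mutants.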

How the results depend on the processing

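In what follows, the percentages are the shares of all genes called in the same fit. With only the groups compared in the fit, the members called were 1 in R140Q against control (6.73%), 3 in R172K against control (8.97%) and 0 in R172K against R140Q (0.0451%). Array weights gave 2 (8.28%), 15 (22.5%) and 7 (8.90%) in the same order of comparisons. Testing every probe set gave 6 in R172K against control (7.62%) and 0 between the mutants (0.0144%). An adjusted p of 0.01 left 1 (3.88%) and 0 (0.00502%), and trended, robust variances gave 1 between the mutants (0.898%). Without control array 3, R172K array 3 and R140Q array 4 together, 4 were called between the mutants (4.04%). Leaving out single arrays gave 0 to 2 in R140Q against control (0.502% to 5.09%), 2 to 22 in R172K against control (6.66% to 20.9%) and 0 to 10 between the mutants (0.00502% to 7.91%). The median differences over members kept their sign in every alternative run, at 0.05 to 0.17, 0.23 to 0.71 and 0.01 to 0.54 over the fits leaving out an array. Of the 24 alternatives, Pla2g7 passed in R172K against control in 24, Ms4a4a in 23, Ctss in 18, Lgals3 in 17, Fcgr3 and Trem2 in 16 each and Mpeg1 in 9. Of the 23 that measured them, Timd4 passed in 16, Ccr2 in 11 and Gpnmb in 7. Between the mutants, Ms4a4a passed in 11 and Pla2g7 in 8 of 24. The causes were not tested. Fits with fewer arrays also have fewer residual degrees of freedom, and the part of this was not tested either.

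Same-numbered arrays of different groups did not deviate together, with correlations of -0.34 to 0.15 over 12 pairs, 2 of them over 0.1. Fitting the replicate number as a block gave 0 members in R140Q against control, 6 in R172K against control and 0 between the mutants, with 0.983%, 10.1% and 0.0552% of all genes called, and the numbers are not taken as pairing. The 6 members dimmer than the median gene have the least signal over background, and no detection calls were used here.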

Other observations

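Because Ms4a4a passed in both comparisons of R172K, the 11 other measured genes of its family were looked at after its values were seen. By limma, 2 rose from control in R172K hearts, against 6.23% of all genes. None passed in R140Q hearts, against 2.20% of all genes. At an unadjusted p of 0.05 by limma, 1 was lower there, against 17% of all genes in either direction. The median difference in R172K hearts was 0.09. Ms4a6d measured 8.30, 8.06, 7.48 and 9.17 on R172K arrays 1 to 4, 7.01, 8.46, 7.51 and 6.99 on the R140Q arrays and 6.71, 6.87, 7.14 and 7.18 on the control arrays. All 4 R172K arrays lay above all controls, while R140Q array 2 also exceeded 3 R172K arrays, and the rise was 1.28 ± 0.35 (SE), adjusted p = 0.0321 by limma. Ms4a6b measured 7.73, 7.92, 7.75 and 8.06 on R172K arrays 1 to 4, 6.97, 7.60, 7.22 and 7.00 on the R140Q arrays and 7.38, 7.21, 7.48 and 7.51 on the control arrays. Every R172K array lay above every other array, for 0.47 ± 0.13 (SE), adjusted p = 0.0343 against control and 0.67 ± 0.13 (SE), adjusted p = 0.04 against R140Q by limma. The family lies in a cluster, with Ms4a7, Ms4a4a and Ms4a4c as neighbours, and cross-hybridisation among its genes was not tested.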
